A study of Mus musculus with 7 samples.

Results

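The 4 mature arms of the microRNA hairpins mir-185 and mir-149 (miR-185-5p, miR-185-3p, miR-149-5p and miR-149-3p) were followed in the colorectum of healthy mice and of mice with induced colorectal cancer (CRC). They were taken by name (mmu-miR-185-5p, mmu-miR-185-3p, mmu-miR-149-5p and mmu-miR-149-3p) from a table of 1915 mature microRNAs (miRNAs). The hairpins were selected on their levels and 5p to 3p ratios in the contrast of CRC and healthy mice, so these values are given as descriptions. Calls come from fits of all miRNAs or all hairpins, are printed beside the share called in the same fit, and support nothing about the members. Small RNA was sequenced from 6 wild-type C57BL/6 females injected at 7 weeks of age. The 3 CRC mice, M4 to M6, had been injected with the colon carcinogen azoxymethane (AOM, 10 mg per kg). From 5 days later they drank 2.5% dextran sodium sulfate (DSS), an agent that damages the gut lining, for 7 days. The labels then give 14 days of plain water, 3 repeats, and for these mice stage T1, day 17. The 3 healthy mice, M1 to M3, had been injected with 0.9% NaCl. No group received AOM or DSS alone, so effects of the carcinogen, of injury and of tumours cannot be told apart. The tissue is bulk colorectum, in which fewer cells of a type and less RNA per cell cannot be told apart either.

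A miRNA hairpin is cut into a short duplex of its 5p and 3p arms. An Argonaute protein keeps the guide arm, which then pairs through its seed with messenger RNAs and represses them, and the passenger arm is usually degraded. A guide often begins with U and is less tightly paired at its 5′ end than the passenger. The guides miR-185-5p and miR-149-5p are both studied as growth-restraining miRNAs in gut tumours. The 3p arms are passengers in most tissues, and miR-149-3p is also known as a p53-responsive miRNA.

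The sequences of the arms are shown because the seeds and the G and C content (GC content) separate the 4 members from each other. They are written in RNA letters, with the seed, bases 2 to 8, in capitals. RefSeq's mature entries were matched for 3 of the 4 arms, miR-185-3p, miR-149-5p and miR-149-3p. All 4 sequences in the count table lie within RefSeq's hairpins.
miR-185-5p: uGGAGAGAaaggcaguuccuga
miR-185-3p: aGGGGCUGgcuuuccucuggu
miR-149-5p: uCUGGCUCcgugucuucacuccc
miR-149-3p: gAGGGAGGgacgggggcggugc

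All 4 seeds differ. The 5p arms start with U, miR-185-3p with A and miR-149-3p with G. Among their first 4 bases, each 5p arm has 2 G or C and each 3p arm 3. The more abundant arm had the fewer G and C there in 41.9% of 236 hairpins with both arms counted. In the rest it had as many or more, and ties were not counted apart. Over the same hairpins, 48.3% of the more abundant arms and 23.7% of the less abundant arms began with U. GC content was 50% in miR-185-5p and 61.9% in miR-185-3p, and 60.9% in miR-149-5p and 81.8% in miR-149-3p. The median over the 878 miRNAs that passed the filter on low counts was 50%. Only 14 of the 878 had at least the GC content of miR-149-3p. The hairpins, from RefSeq on GRCm38.p6, are shown with the arms in capitals, to place each pair in its precursor.
mir-185: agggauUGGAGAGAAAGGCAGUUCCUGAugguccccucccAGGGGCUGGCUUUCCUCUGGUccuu
mir-149: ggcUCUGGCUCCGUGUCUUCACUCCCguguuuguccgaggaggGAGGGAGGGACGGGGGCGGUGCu

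Mir185 lies at chr16:18327401-18327465 on the minus strand. It is inside Tango2, a gene named for transport and Golgi organization, on the same strand and in introns of 10 annotated transcripts. Mir149 lies at chr1:92850378-92850443 on the plus strand, in an intron of the heparan sulfate proteoglycan gene Gpc1, also on the same strand. No annotated exon of either host overlaps a hairpin. No other entry of the table shared a run of 15 or more bases with any of the 4 arms on either strand.

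Total miRNA reads ran from 3206127 to 15280434 per mouse, with the CRC mice shallower (at most 6601899) than the healthy mice (at least 8222508). For mouse M1 there are 2 labelled libraries but 1 column in the table, used here as 1 healthy mouse. The profiles lay in neighbouring pairs. Across the 878 miRNAs that passed the filter, the correlation of log2 CPM was 0.992 for M1 with M2, 0.971 for M3 with M4 and 0.976 for M5 with M6, and no more than 0.953 for any other pair. The healthy mouse M3 was thus nearest to a CRC mouse, M4, and results that rest on either are given without them. Levels are CPM, counts scaled to 1000000 reads, on library sizes scaled by TMM, edgeR's trimmed-mean method. All 4 arms passed the filter. Fold changes come from edgeR's fit of all 878 miRNAs, and SE is the standard error. In that fit 20 miRNAs, 2.28%, were called at a Benjamini-Hochberg adjusted p of 0.05, all higher in CRC, and 0 of the 4 arms were among them. DESeq2 called 111 of 878, 76 higher and 35 lower, with miR-185-3p and miR-149-3p among the higher. With neighbouring profiles as blocks edgeR called 13 higher and 14 lower, none of the 4 arms among them. Scaling by total counts alone raised log2 fold changes by a median of 0.71 against the TMM scale, so the levels below are relative to that scale.

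The guide miR-185-5p was the most abundant of the 4 arms. Among the healthy mice M1 had 982 CPM, M2 944 CPM and M3 343 CPM. The CRC mice had 470 CPM (M4), 302 CPM (M5) and 270 CPM (M6). M1 and M2 stood above the other mice, while the healthy mouse M3 lay below the CRC mouse M4, so the groups overlapped. The healthy mean was 756 ± 359 CPM and the CRC mean 347 ± 107 CPM (SD, n = 3 each). The log2 fold change was -1.12 (SE 0.50). It was -0.32 when scaled by total counts alone, and 0.45 with neighbouring profiles as blocks, where only M3 and M4 carry the difference. Without M3 and M4 it was -2.04. The summed level of 4 muscle miRNAs, which mark the muscle wall, was also highest in M1 and M2, at 575198 and 822320 CPM. It was 189893 CPM in M3, 217745 CPM in M4, 45415 CPM in M5 and 44427 CPM in M6. Of the 4, only miR-133a-3p was highest in M3, at 1019 CPM, against 419 CPM in M1 and 511 CPM in M2. The part of muscle in the level of miR-185-5p was not tested.

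The passenger miR-185-3p ran the other way. Its counts were 38 in M1, 23 in M2 and 18 in M3, against 76 in M4, 50 in M5 and 53 in M6, although the CRC libraries were smaller. As levels these were 4.25, 2.59 and 1.98 CPM in the healthy mice and 12.1, 9.05 and 11.3 CPM in the CRC mice. Each CRC mouse, M4 included, lay above each healthy mouse, on the TMM scale and with total counts alone. Over the 878 miRNAs, 14.1% had every CRC mouse above every healthy mouse. The means were 2.94 ± 1.17 CPM and 10.8 ± 1.59 CPM (SD, n = 3 each), and the log2 fold change was 1.87 (SE 0.50). It was 2.63 when scaled by total counts alone and 1.29 without M3 and M4.

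**Figure D1:**
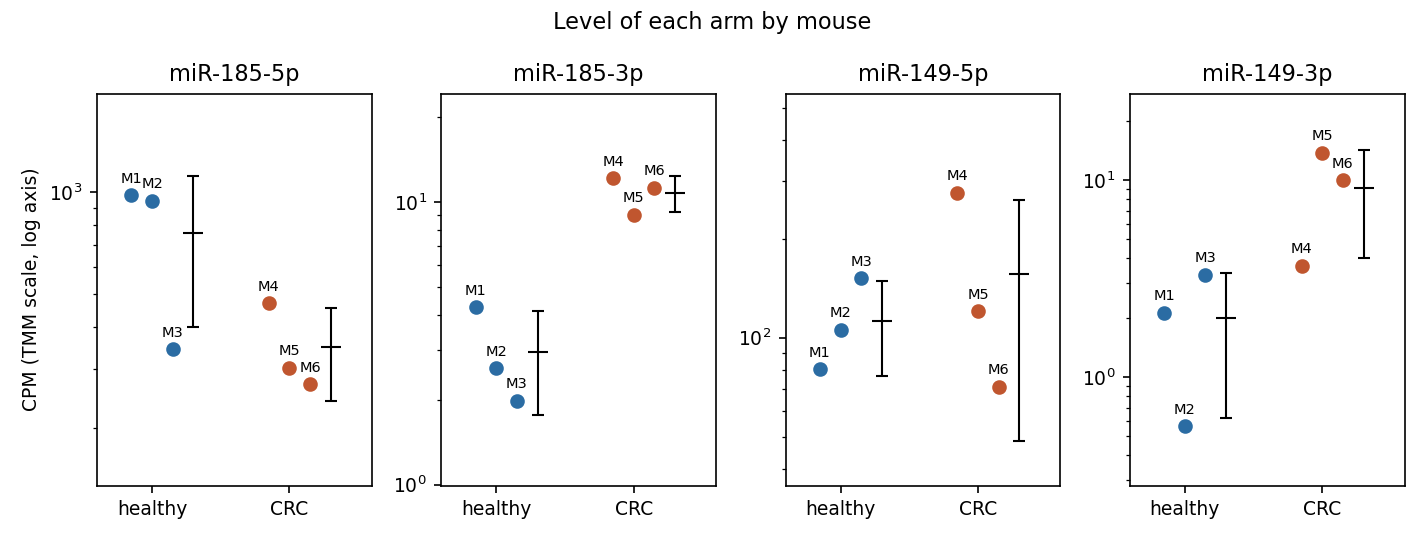
Level of each arm in each mouse in CPM on the TMM scale (log axis). Points are mice, and the bars beside them are the group mean ± SD (n = 3 each). The miR-185-3p levels of M4, M5 and M6 lie between 9.05 and 12.1 CPM, all above the healthy mice, whereas those of miR-149-3p in M3 (3.30 CPM) and M4 (3.67 CPM) almost meet.

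Set against each other within a library, the arms of mir-185 need no scaling between libraries. The 3p arm made up 0.431% of the reads of both arms in M1 (95% Clopper-Pearson interval 0.305 to 0.591%), 0.273% in M2 (0.173 to 0.409%) and 0.574% in M3 (0.341 to 0.906%). In the CRC mice it was 2.52% in M4 (1.99 to 3.14%), 2.91% in M5 (2.17 to 3.81%) and 4.0% in M6 (3.01 to 5.20%). No interval of a CRC mouse met that of a healthy mouse. These intervals cover counting error only.

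As a log2 ratio of 5p to 3p counts, each with 0.5 added, mir-185 had 7.83 in M1, 8.48 in M2 and 7.40 in M3, against 5.27, 5.05 and 4.57 in M4 to M6. The guide still outnumbered the passenger 23.8-fold in M6, the mouse with the lowest ratio, compared with 357-fold in M2. The mean log2 ratio was 7.90 ± 0.55 in healthy and 4.96 ± 0.35 in CRC mice (SD, n = 3 each). The difference was -2.94 (SE 0.50), a 7.69-fold lower ratio. On the TMM scale the log2 fold change was negative for the guide and positive for the passenger. With total counts alone it was -0.32 for the guide and 2.63 for the passenger. Between M4 and M3 alone the ratio differed by -2.13.

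In limma's fit of all 236 hairpins whose arms each had a mean of 10 counts or more, 1 hairpin, 0.424%, was called at a Benjamini-Hochberg adjusted p of 0.05. That hairpin was mir-185. Since the hairpin was chosen with this contrast known, the call is a description. Over the 236 hairpins the median difference was -0.08 with quartiles of -0.62 and 0.65, and 123 were negative. In 6.36% every CRC mouse lay below every healthy mouse, mir-185 among them, and in 8.05% every CRC mouse lay above. Without M1 (-2.98), M2 (-2.65), M5 (-2.99) or M6 (-2.75) mir-185 was not called, and without M3 (-3.20) or M4 (-3.09) it was. The fits without M1, M2, M5 or M6 called 0 hairpins. Those without M3 and without M4 called 10 of 234 and 12 of 242. mir-185 was also not called with neighbouring profiles as blocks (-2.13) or when each profile was thinned to 3206127 reads (-2.92).

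**Figure D2:**
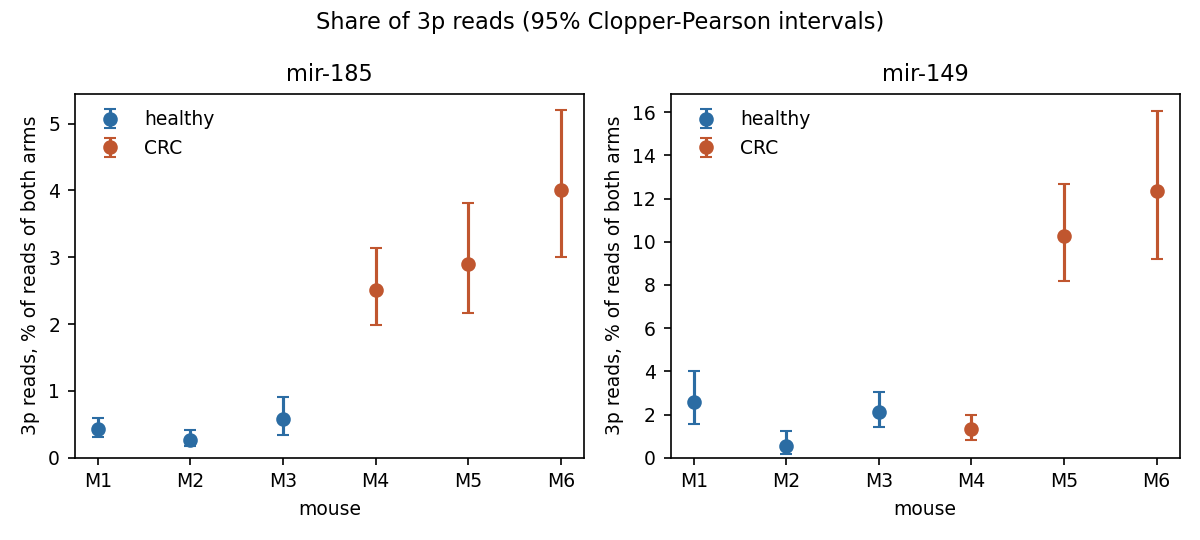
Reads of the 3p arm as a percentage of the reads of both arms, by mouse, with 95% Clopper-Pearson intervals. For mir-185 the 3 CRC mice (2.52 to 4.0%) lie above the 3 healthy mice (0.273 to 0.574%), while for mir-149 only M5 and M6 do.

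The guide miR-149-5p was less abundant than miR-185-5p. Its healthy levels were 80.3 CPM for M1, 106 CPM for M2 and 151 CPM for M3. Its CRC levels were 276 CPM for M4, 120 CPM for M5 and 71.0 CPM for M6. The highest and the lowest level were both in CRC mice, so the groups overlapped. The healthy mean was 112 ± 36.0 CPM and the CRC mean 156 ± 107 CPM (SD, n = 3 each), with a log2 fold change of 0.47 (SE 0.55). Without M4 the value was -0.17, and without M3 and M4 -0.27.

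miR-149-3p, the G-rich passenger, was counted 19 times in M1, 5 times in M2 and 30 times in M3, against 23 times in M4, 76 times in M5 and 47 times in M6. Its levels were 2.12, 0.562 and 3.30 CPM in the healthy mice and 3.67, 13.8 and 9.99 CPM in the CRC mice. M5 and M6 stood apart from the other 4 mice, and M4 was close to M3. With total counts alone M4 (3.48 CPM) was below M3 (3.65 CPM), so the groups then overlapped. The means were 2.00 ± 1.37 CPM and 9.14 ± 5.09 CPM (SD, n = 3 each), with a log2 fold change of 2.18 (SE 0.72). This value was 0.15 with neighbouring profiles as blocks. It was 2.65 without M4 and 2.84 without M3 and M4.

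The 3p share of mir-149 was 2.58% in M1 (95% Clopper-Pearson interval 1.56 to 4.0%), 0.529% in M2 (0.172 to 1.23%) and 2.14% in M3 (1.45 to 3.04%). In the CRC mice it was 1.31% in M4 (0.834 to 1.96%), 10.3% in M5 (8.18 to 12.7%) and 12.3% in M6 (9.21 to 16.1%). M4 thus lay within the healthy range. M2, whose share rests on 5 reads of the 3p arm, lay apart from M1 and M3 beyond the intervals. The log2 ratio of 5p to 3p counts was 5.20, 7.42 and 5.49 in M1 to M3 and 6.20, 3.12 and 2.82 in M4 to M6. Its mean was 6.04 ± 1.20 in healthy and 4.05 ± 1.87 in CRC mice (SD, n = 3 each), a difference of -1.99 (SE 0.92). The hairpin was not called in the fit of all hairpins, and the groups overlapped. Without M4 the difference was -3.07 and without M2 it was -1.30. Between M4 and M3 alone it was 0.71, the opposite sign.

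The hairpins thus shared a lower ratio in M5 and M6 and parted in M4. The log2 ratio of mir-185 exceeded that of mir-149 by 2.63 in M1, 1.06 in M2, 1.90 in M3, 1.93 in M5 and 1.76 in M6. In M4 it was lower by that measure, at -0.94. Among the 236 hairpins, 1 had a more negative difference than mir-185 and 7 had a more negative one than mir-149. In size regardless of sign, 7 hairpins exceeded mir-185 and 21 exceeded mir-149. The reads of both arms together, which the guide dominates, came for mir-185 to a healthy mean of 759 ± 359 CPM and a CRC mean of 358 ± 108 CPM (SD, n = 3 each). For mir-149 they came to 114 ± 36.8 CPM and 165 ± 103 CPM (SD, n = 3 each).

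The log2 fold change between the groups rose with GC content across the table, and GC-rich entries took their largest share of reads in M5 and M6. Entries with at least 70% GC, the class of miR-149-3p, took 0.0218 to 0.0493% of the reads in the healthy mice and 0.0547% in M4, but 0.422% in M5 and 0.468% in M6. Of the 52 tested miRNAs in that class 44 had positive log2 fold changes, with a median of 1.63. From 60% to below 70%, where miR-185-3p and miR-149-5p fall, 101 of 150 were positive, with a median of 0.43. From 50% to below 60%, the class of miR-185-5p, the median was -0.04. Over all 878 the median was -0.03.

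When the trend of level on GC content was removed from each profile by loess, the members separated. The removal raised log2 fold changes by a median of 0.11 over all tested miRNAs. The difference in log2 ratio of mir-149 became -0.78 (SE 0.64), and that of mir-185 became -2.53 (SE 0.49). For mir-185 the corrected ratios were 6.08, 6.58 and 5.66 in M1 to M3 and 3.71, 3.71 and 3.31 in M4 to M6, so the groups still did not overlap. For mir-149 they were 4.15, 6.08 and 4.53 against 5.11, 3.71 and 3.58, and M4 exceeded both M1 and M3. The log2 fold change of miR-149-3p became 0.62 (SE 0.58) and that of miR-185-3p 1.59 (SE 0.49). The trend at the GC content of miR-149-3p lies near the edge of the loess. Only 14 of the 878 miRNAs, itself included, have as much GC. In log2 units the trend there was -2.62 to -2.08 in M1 to M4, -0.43 in M5 and -0.23 in M6.

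**Figure D3:**
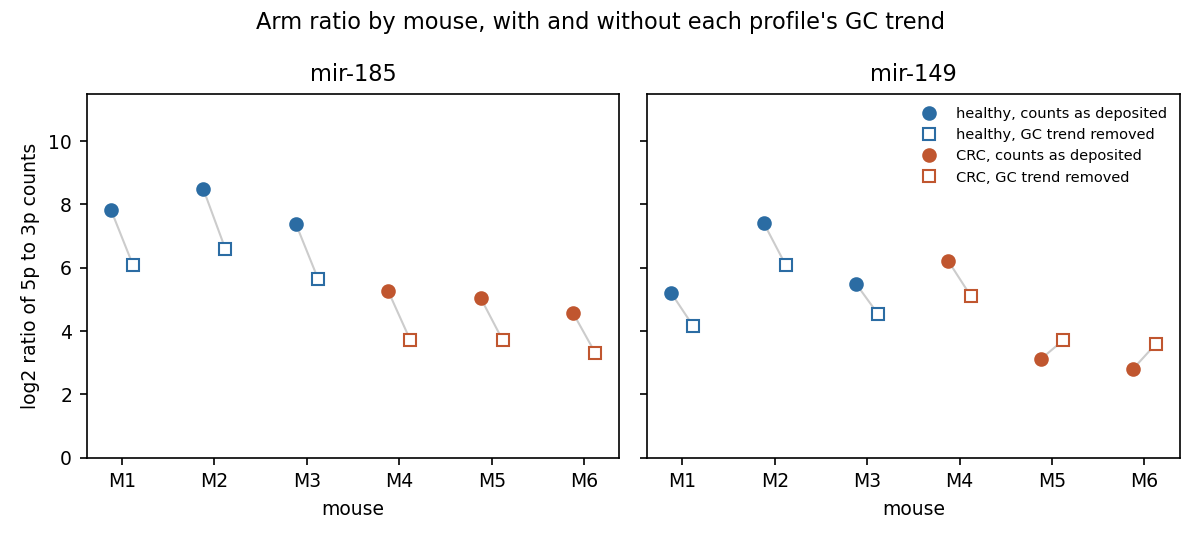
Log2 ratio of 5p to 3p counts by mouse, from the counts as deposited (filled circles) and after removal of each profile's trend on GC content (open squares). For mir-185 the CRC mice stay below the healthy mice in both (a difference of -2.94, then -2.53), whereas for mir-149 the difference goes from -1.99 to -0.78.

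Hairpins with a GC-rich 3p arm lay on both sides of 0. The 236 hairpins hold 12 whose 3p arm has at least 60% GC and exceeds the 5p arm by at least 10 percentage points, the members among them. Their median difference was -0.49, beside -0.08 over all hairpins, with 7 negative and 5 positive. The other 10 had a median of 0.14, with 5 of each sign, and 0 were called. The 5 most abundant of them were mir-106b (1.17, SE 0.68), mir-425 (-0.58, SE 0.56), mir-139 (-0.40, SE 0.61), mir-700 (0.89, SE 0.49) and mir-1843b (-0.86, SE 0.49). Of the 10, mir-1843b alone had every CRC mouse below every healthy mouse. mir-106b belongs to a cluster that promotes proliferation. In the 7 hairpins with the mirrored composition, a GC-rich 5p arm, the median was 0.20, with 3 negative and 4 positive. Across the 236 hairpins the difference and the excess of GC in the 3p arm had a Pearson correlation of -0.10. The Spearman correlation was -0.03. Both describe hairpins that share their libraries. The part of GC content in the arm levels and ratios was not tested.

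**Figure D4:**
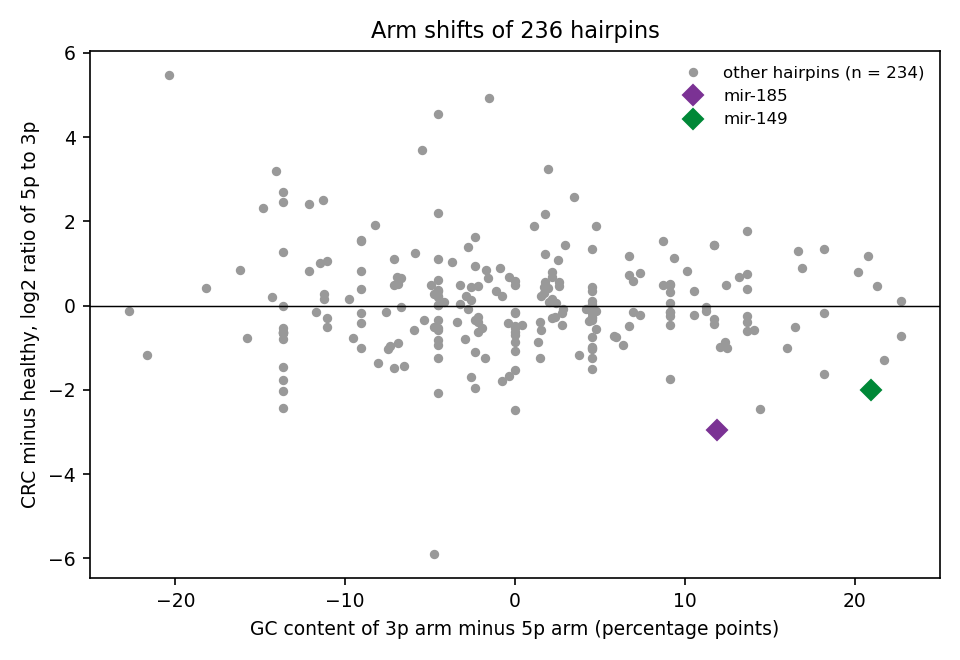
Difference between CRC and healthy mice in the log2 ratio of 5p to 3p counts (vertical axis) against the GC content of the 3p arm minus that of the 5p arm (horizontal axis) for 236 hairpins, each a point. mir-185 (-2.94) and mir-149 (-1.99) lie below 0, with 1 and 7 hairpins more negative, while the other hairpins with GC-rich 3p arms spread on both sides of 0.

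Few other entries carry the members' seeds, so each guide seed was mostly that of its own miRNA. The seed of miR-185-5p is shared by miR-882, with 1 to 10 counts per mouse, and by miR-3473a, with 5.03 to 24.6 CPM and a log2 fold change of 0.99 (SE 0.54). No entry shares the seed of miR-149-5p. The seed of miR-185-3p is shared by miR-7048-5p, which had 1.01, 0.899 and 0.991 CPM in M1 to M3 and 4.79, 2.89 and 4.89 CPM in M4 to M6. As with miR-185-3p, its groups did not overlap, and its log2 fold change was 2.10 (SE 0.52), not called. The seed of miR-149-3p is shared by miR-1943-5p (0.46, SE 0.51) and by miR-6967-5p and miR-7016-5p, which did not pass the filter on low counts.

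Closest to Mir185 in the table were miRNAs about 43 kb away. miR-1306 comes from Dgcr8, the gene of the partner protein of the Drosha nuclease. miR-1306-5p had 15.3, 15.5 and 19.3 CPM in the healthy mice, 45.3 CPM in M4, 3.08 CPM in M5 and 4.46 CPM in M6, high in M4 and low in M5 and M6, unlike either arm of mir-185. Its log2 fold change was 0.08 (SE 0.88), and that of miR-1306-3p was 0.66 (SE 0.61). miR-3618-5p and miR-3618-3p, from close beside it, had 1 to 8 counts per mouse. No entry of the table was annotated within 200 kb of Mir149.

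Likeness of pattern was measured as the root mean square difference of mean-centred log2 CPM (0.5 added) over the 6 mice. The miRNAs nearest to miR-185-5p were miR-190b-5p (0.14), miR-574-5p (0.14), miR-26a-5p (0.16), miR-700-3p (0.17) and miR-3065-3p (0.19). Of these miR-26a-5p is the abundant one, with 25790 to 26879 CPM in M1 and M2 and 7383 to 12658 CPM in the other mice. miR-185-3p was followed less closely by miR-7686-5p (0.27), the seed sharer miR-7048-5p (0.29), miR-6539 (0.31), miR-7045-3p (0.32) and miR-696 (0.36). Their GC content was 72%, 68.2%, 54.2%, 76.2% and 66.7%, in that order, against 61.9% in miR-185-3p. All were scarce, with at most 9.59 CPM in any mouse. Nearest to miR-149-5p were miR-29b-1-5p (0.23), miR-34c-5p (0.27), the myeloid miRNA miR-223-3p (0.30), miR-365-1-5p (0.31) and miR-328-3p (0.33). All of these were highest in M3 and M4. For miR-149-3p they were miR-1931 (0.25), miR-9768-3p (0.26), miR-101a-5p (0.37), miR-5121 (0.39) and miR-5099 (0.39), which were highest in M5 and M6. These had 63.6%, 58.3%, 45.5%, 47.6% and 50% GC, in that order, against 81.8% in miR-149-3p. None of the 4 arms was among the 5 nearest to another.

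By arm ratio, with the same measure on mean-centred log2 ratios, the hairpins nearest to mir-185 were mir-100 (0.68), mir-615 (0.75), mir-669c (0.76), mir-182 (0.80) and mir-493 (0.81). The nearest to mir-149 were mir-362 (0.72), mir-669c (0.76), mir-3109 (0.87), mir-1930 (0.87) and mir-182 (0.93). mir-149 was number 28 in the order of likeness to mir-185, at 1.14. In mir-100 the log2 ratios were 8.84, 8.88 and 8.71 in M1 to M3 and 7.18, 6.10 and 7.09 in M4 to M6. Its 3p arm has 36.4% GC against 50% in its 5p arm. The 3p arm also has less GC than the 5p arm in mir-615, mir-669c and mir-182. In mir-493 it has more (56.5% against 42.1%).

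The miRNAs that mark the tissue were present. Of 7 epithelial miRNAs 7 were counted in every mouse and made up 11.3 to 16.2% of the reads. The 4 muscle miRNAs made up 47.9% in M2 and 41.4% in M1, 21.0% in M3 and 20.7% in M4, but 7.04% in M5 and 6.52% in M6. The summed leukocyte level (4 of 4 present) was 3164 to 15242 CPM in healthy and 6757 to 8130 CPM in CRC mice, and that of 2 red blood cell miRNAs was 281 to 560 CPM and 465 to 1840 CPM. Summed levels were 6027 to 10135 CPM and 4035 to 10190 CPM for 3 fibroblast miRNAs. They were 10998 to 13516 CPM and 9384 to 12684 CPM for 2 endothelial miRNAs, and 363 to 636 CPM and 204 to 304 CPM for 3 nerve miRNAs. None of these markers was at 0 in any mouse. The part of tissue composition in the arm levels and ratios was not tested.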

How the data were processed

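Small RNA of 6 mouse colorecta was prepared with the Ion Total RNA-Seq kit and sequenced on an Ion Proton, per the labels' protocols. Per the submitters' processing notes, reads were aligned with BWA to mm10 (GRCm38). Raw read counts of 1915 mature miRNAs, each with its sequence, were deposited by the authors. The sources used here do not say how a read that matches more than 1 hairpin was counted, nor whether column M1 sums the 2 libraries of that mouse. Groups were taken from the labels, and the mice are separate animals. The labels name no batch.

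The members, gene lists, tests and alternatives were chosen with earlier results of these data known. Counts were fitted with edgeR 4.0.16 in R 4.3.3 (TMM, filterByExpr by group, robust dispersions, glmQLFit with robust=TRUE, glmQLFTest, two-sided). Arm ratios were fitted with limma 3.58.1 (trend, robust) on the log2 ratio of 5p counts to 3p counts, 0.5 added to each. Alternatives in place of edgeR were DESeq2 1.42.0 with its Wald test and limma-voom. The SE of an edgeR log2 fold change is the absolute value over the root of its F statistic. GC trends were fitted by loess (span 0.75) of log2 level on the GC content of the mature sequence. Named by rule were the 4 arms, miRNAs sharing bases 2 to 8 with them, entries within 200 kb of either hairpin, the 5 nearest patterns by root mean square difference, and up to 5 abundant hairpins of each GC list. From the list with a GC-rich 5p arm only its median and counts of signs are given, without naming its abundant members. Host genes come from GENCODE M21 on GRCm38 and sequences from RefSeq on GRCm38.p6. The alternatives were other scalings, no filter, other tools, other added counts, a higher count minimum, leaving out mice, neighbouring profiles as blocks (the pairs M1 and M2, M3 and M4, and M5 and M6), GC trend removal and thinning.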

Additional observations from a re-analysis of the deposited data

How the results depend on the processing

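Low counts of the 3p arms (18 to 76 reads of miR-185-3p and 5 to 76 of miR-149-3p per mouse) and 3 mice a group limit these values. The difference in log2 ratio of mir-185 kept its sign under 12 of 12 alternatives (-3.35 to -2.13). That of mir-149 kept it under 11 of 12, and was -3.34 without M3 and M4. In that fit 98 of 247 hairpins were called, mir-185 and mir-149 among them. Leaving out 1 mouse at a time gave -3.20 to -2.65 for mir-185 and -3.07 to -1.30 for mir-149. With neighbouring profiles as blocks, which leaves M4 against M3, the values were -2.13 and 0.71. Neither hairpin has both arms at a mean of 50 counts, so that minimum gives no value for them.

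Scaled by total counts alone, the log2 fold change was -0.32 for miR-185-5p and 2.63 for miR-185-3p. Without M3 and M4 these were -2.04 and 1.29, and with neighbouring profiles as blocks 0.45 and 2.60. That of miR-149-3p was 0.15 with the blocks and 0.62 with the GC trend removed. Leaving out 1 mouse gave -1.54 to -0.75 for miR-185-5p, 1.58 to 2.26 for miR-185-3p, -0.17 to 0.81 for miR-149-5p and 1.78 to 2.65 for miR-149-3p. The signs of both 3p arms held under 15 of 15 alternatives, that of miR-185-5p under 14 and that of miR-149-5p under 13. Of the 15, miR-185-3p was called under 4: total counts alone, DESeq2, without M4, and without M3 and M4. miR-149-3p was called under 3 (DESeq2, without M4, and without M3 and M4). miR-185-5p was called under 1 (without M3 and M4) and miR-149-5p under 0. The shares called in these fits follow.

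The number of miRNAs called, 20 of 878, was 43 of 878 with total counts alone, 64 of 1914 without the filter (52 higher, 12 lower), 111 of 878 in DESeq2 and 0 of 878 in limma-voom (216 at an unadjusted p under 0.05). Without M3 and M4 it was 576 of 1082 (279 higher, 297 lower), and after thinning 13 of 681. Without 1 mouse it was 0 to 237: 0 without M1, M5 or M6 (181, 121 and 131 at an unadjusted p under 0.05 in edgeR), 4 of 1106 without M2, 63 of 1068 without M3 (29 higher, 34 lower) and 237 of 1188 without M4 (170 higher, 67 lower). The number of hairpins called, 1 of 236, was 2 with 1 added to each count, 2 with the GC trend removed, 5 with the blocks, 98 of 247 without M3 and M4, and 0 to 12 without 1 mouse. It was 0 with a minimum of 50 counts (17 of 143 at an unadjusted p under 0.05 in limma) and 0 after thinning (23 of 193). The cause of these differences was not tested.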

Other observations

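miR-6366, whose hairpin lies 162 kb from Mir185 on chromosome 16, had 6 counts in M1, 5 in M2, 2 in M3 and 7 in M4, but 115 in M5 and 275 in M6, the shallowest profile. It did not pass the filter on low counts, which asks for enough reads in as many mice as a group holds, so it has no fitted value. Its level was 20.8 CPM in M5 and 58.4 CPM in M6, against at most 1.12 CPM in the other 4 mice.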
